A study of Mus musculus with 10 samples.

Results

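The interferon-induced genes and guanylate-binding proteins examined here are 38 genes, taken from the 57185 genes with counts by their gene symbols. They comprise 9 guanylate-binding protein genes, 5 immunity-related GTPase genes, 5 transcription factor genes, 5 genes of RNA sensing and 2-5A synthesis, 3 IFIT genes, 4 antiviral effector genes, the ISG15 gene and its protease gene, and 5 other interferon-induced genes. RNA of the left ventricle was sequenced in 5 MLPKO and 5 cRADΔ/Δ-MLPKO mice, which were male and, per the labels, 16 weeks of age and 1 month past tamoxifen. All 10 mice lacked muscle LIM protein (MLP), which gives dilated cardiomyopathy, carried floxed alleles of the RAD gene (RADfl/fl), and had received 1 intraperitoneal dose of tamoxifen, 100 mg/kg, at 10 weeks of age. The labels and the paper do not match exactly, as 16 weeks of age is more than 1 month after the dose. The cRADΔ/Δ-MLPKO mice (MLPKO-cRADKO in the labels) also carried a MYH6-MerCreMer transgene, a tamoxifen-induced recombinase driven by a cardiomyocyte promoter, which deletes RAD in cardiomyocytes. The transgene was in this genotype alone, so effects of the recombinase and of the loss of RAD cannot be told apart.

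Interferons are secreted proteins that act through the receptors IFNAR (type I) and IFNGR (type II). The receptors activate JAK kinases and STAT proteins, which bind interferon-stimulated response elements (ISRE, together with IRF9) or gamma-activated sites (GAS) in target promoters. The targets include guanylate-binding proteins and immunity-related GTPases, large GTPases that assemble on the vacuoles of intracellular pathogens, and the IFIT, OAS and Mx proteins, which act on viral RNA and virus replication. In heart tissue such genes can be read from cardiomyocytes, endothelial cells, fibroblasts and resident macrophages alike.

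Libraries held 33457406 to 49965101 counts each. Rrad, the gene for RAD, had normalized counts of 5774 to 11644 in MLPKO and 5562 to 8362 in cRADΔ/Δ-MLPKO, a log2 fold change of −0.38 (edgeR adjusted p = 0.29), over all cells of the tissue and the whole gene. Csrp3, the gene for MLP, had 41725 to 134792 in MLPKO and 28554 to 48660 in cRADΔ/Δ-MLPKO (log2 fold change −1.08, edgeR adjusted p = 0.0666), and was counted in both genotypes although both are named knockouts of it. Between 73.7% and 80.3% of the counts from 1 to 20 were even numbers in each library, and the part of this in the results was not tested. Normalized counts are counts scaled by TMM to a common library size, and a gene was called where its adjusted p in the quasi-likelihood test of edgeR was under 0.05.

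The promoters of the members were read first, as 300 bases of the GRCm39 genome, 250 before and 50 from the annotated start. The letters GAAANNGAAA, the core of the ISRE, were present on either strand in the windows of 20 of the 38 members (52.6%), and in 835 of 21757 protein-coding genes (3.84%). TTCNNNGAA, the GAS, was present in 12 members (31.6%), and in 8.82% of all windows. Both were present in 8 members, and their letters overlapped in Bst2 and Zbp1. Neither was present in 14 members, 6 of them guanylate-binding protein genes.

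The windows below belong to Gbp10 and Gbp6, which differed between the genotypes, to their neighbour Gbp4, which was not called, and to Gbp7 and Oas1a, which hold both motifs. Capitals mark the motifs. The windows of Gbp10 (chr5:105387362-105387661), Gbp6 (chr5:105441782-105442081), Gbp4 (chr5:105287403-105287702) and Oas1a (chr5:121045561-121045860) are on the minus strand and that of Gbp7 (chr3:142235794-142236093) is on the plus strand, each written 5′ to 3′.
Gbp10: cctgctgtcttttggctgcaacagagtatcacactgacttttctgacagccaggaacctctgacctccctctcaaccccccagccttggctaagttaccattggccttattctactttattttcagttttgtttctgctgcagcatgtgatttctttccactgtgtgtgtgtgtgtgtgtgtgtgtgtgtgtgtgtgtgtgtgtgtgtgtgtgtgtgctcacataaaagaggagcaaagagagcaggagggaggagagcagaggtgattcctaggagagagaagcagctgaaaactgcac
Gbp6: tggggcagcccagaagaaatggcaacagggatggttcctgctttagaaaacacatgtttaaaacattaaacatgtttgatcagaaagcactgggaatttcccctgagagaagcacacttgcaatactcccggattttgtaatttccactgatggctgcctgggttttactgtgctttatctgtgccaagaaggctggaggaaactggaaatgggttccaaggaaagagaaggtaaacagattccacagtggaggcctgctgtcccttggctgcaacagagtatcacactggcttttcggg
Gbp4: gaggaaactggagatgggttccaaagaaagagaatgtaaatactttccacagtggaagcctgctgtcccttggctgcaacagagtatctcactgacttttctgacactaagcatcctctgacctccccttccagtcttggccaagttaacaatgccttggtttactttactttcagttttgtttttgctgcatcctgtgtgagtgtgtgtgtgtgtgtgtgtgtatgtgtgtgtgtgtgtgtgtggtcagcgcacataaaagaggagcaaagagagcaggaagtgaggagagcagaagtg
Gbp7: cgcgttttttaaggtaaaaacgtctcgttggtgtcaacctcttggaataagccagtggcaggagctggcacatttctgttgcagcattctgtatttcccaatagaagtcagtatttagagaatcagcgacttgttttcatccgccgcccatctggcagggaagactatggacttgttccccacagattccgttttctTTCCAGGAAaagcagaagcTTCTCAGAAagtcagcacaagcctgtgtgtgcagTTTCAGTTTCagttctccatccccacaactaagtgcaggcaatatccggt
Oas1a: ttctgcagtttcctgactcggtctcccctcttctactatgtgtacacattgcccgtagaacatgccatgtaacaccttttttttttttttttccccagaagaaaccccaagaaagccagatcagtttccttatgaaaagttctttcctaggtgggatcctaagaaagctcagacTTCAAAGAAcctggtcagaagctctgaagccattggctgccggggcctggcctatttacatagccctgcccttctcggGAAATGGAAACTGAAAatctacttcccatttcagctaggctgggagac
The windows of Gbp10 and Gbp6 hold neither motif, nor do those of Gbp4, Gbp8 and Gbp9, the other members on chromosome 5 that encode guanylate-binding proteins. The search took exact letters only. In the windows of Gbp10, Gbp4 and Gbp9, letters on the opposite strand match the ISRE core at every fixed base but the first. The end of the Gbp6 window resembles the start of the Gbp4 and Gbp10 windows. Most of the stretch read for Gbp4 and Gbp10 was therefore not searched for Gbp6. Whether these genes lack an ISRE-like element was not tested. Gbp4 and Gbp10 had the same base at 214 of 241 aligned positions of their windows (88.8%), and Gbp4 and Gbp9 at 217 of 226 (96.0%). Gbp6 and Gbp10 aligned at 264 positions with 56.4% identity, as did Gbp3 and Gbp5 of chromosome 3 (56.4% of 236). The windows of Gbp6 and Gbp10 are offset and cover largely different stretches. Their 56.4% identity therefore does not tell how alike the regions before these genes are. Gbp6 and Gbp4 aligned at 104 positions, with 89.4% identity. On chromosome 3, the ISRE core was present in Gbp2, Gbp5 and Gbp7 and absent from the letters of the Gbp3 window.

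Of the 38 members, 37 passed the filter on low counts (above 10 in 6 or more of the 10 mice), and Gbp8 did not. Gbp10 and Gbp6 rose in cRADΔ/Δ-MLPKO, and no other member was called. The counts are of whole tissue, in which a change in the number of cells of a type and a change in RNA per cell cannot be told apart. These 2 of 37 members (5.41%) stand beside 369 of 13451 genes called in either direction (2.74%), 127 genes called higher (0.944%) and 242 genes called lower (1.8%). Without adjustment, 6 members (16.2%) had a p under 0.05, against 21.6% of all genes. DESeq2 called 3 of the 36 members to which it gave an adjusted p (8.33%), Gbp10, Gbp6 and Oas1a, against 10.1% of all genes. MLPKO and cRADΔ/Δ-MLPKO values were fully separate in 2 members (5.41%), the same pair, and in 6.62% of all genes. The share of members called was thus not above the share of all genes by the unadjusted p, by DESeq2 or by overlap.

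The median log2 fold change over the 37 members was 0.070, beside 0.011 over all genes tested. It was above 0 in 26 of the 37 members, beside 7013 of all 13451 genes tested. The 26 were Gbp10, Gbp6, 3 of the 11 other guanylate-binding protein and immunity-related GTPase genes tested, and 21 of the other 24 members. Without MLPKO mouse 5 the median was −0.0049, and over the fits that left out 1 mouse it reached 0.17 (without MLPKO mouse 1). The plot of log2 fold changes by role shows the pair of called genes apart from the other 35, which lay between −0.52 (Gbp4) and 0.73 (Oas1a).

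**Figure D1:**
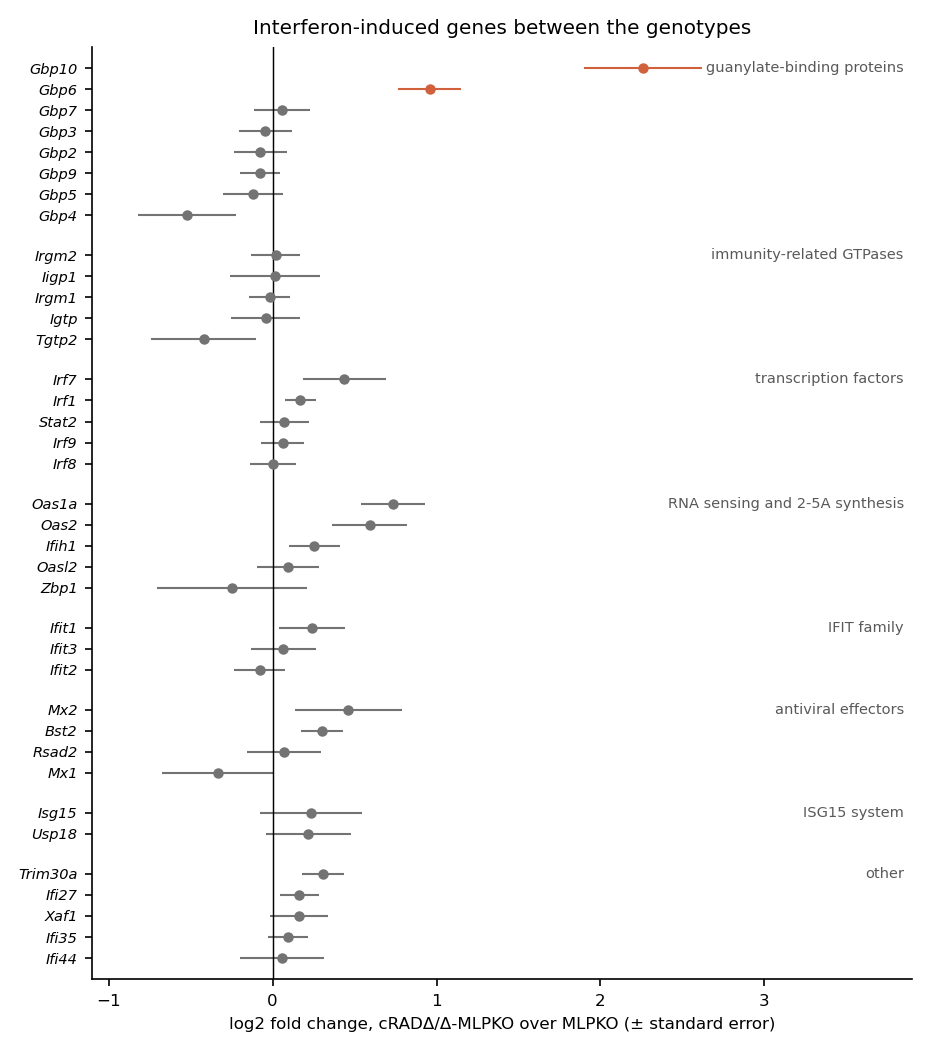
Log2 fold change of 37 interferon-induced genes in cRADΔ/Δ-MLPKO over MLPKO (x axis), grouped by role (y axis), with bars for ± 1 standard error, n = 5 mice per genotype. Genes called by edgeR are in orange. Gbp10 (2.26) and Gbp6 (0.96) stand to the right of all others.

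Gbp10 (ENSMUSG00000105096, chromosome 5, 105362773 to 105412666, minus strand) was among the weakest members. Its normalized counts were 22.9, 13.1, 39.2, 18.7 and 23.7 in MLPKO and 74.2, 86.4, 218, 85.6 and 113 in cRADΔ/Δ-MLPKO. Every cRADΔ/Δ-MLPKO mouse lay above every MLPKO mouse, with cRADΔ/Δ-MLPKO mouse 3 far above the other 4. The means were 23.5 ± 9.70 in MLPKO against 115 ± 59.0 in cRADΔ/Δ-MLPKO (SD, n = 5 mice each), a log2 fold change of 2.26 ± 0.36 (SE, edgeR adjusted p = 0.0166). The call held in 10 of 10 fits that each left out 1 mouse, with log2 fold changes from 1.91 (without cRADΔ/Δ-MLPKO mouse 3) to 2.53 and adjusted p up to 0.0497 (without MLPKO mouse 5).

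Gbp6 (ENSMUSG00000104713, chromosome 5, 105418568 to 105443751, minus strand) had normalized counts of 457, 229, 537, 448 and 327 in MLPKO and 677, 689, 941, 791 and 797 in cRADΔ/Δ-MLPKO. The genotypes did not overlap, and MLPKO mouse 2 was the lowest and cRADΔ/Δ-MLPKO mouse 3 the highest. The means were 399.6 ± 121 in MLPKO against 779 ± 106 in cRADΔ/Δ-MLPKO (SD, n = 5 mice each), a log2 fold change of 0.96 ± 0.19 (SE, edgeR adjusted p = 0.029). The log2 fold change lay between 0.82 and 1.09 over the fits that left out 1 mouse. The call held in 4 of these 10 fits. The adjusted p was 0.0575 without MLPKO mouse 1, 0.0772 without MLPKO mouse 5, and 0.0504, 0.0694, 0.0666 and 0.0739 without cRADΔ/Δ-MLPKO mice 2, 3, 4 and 5.

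Gbp10 and Gbp6 are neighbours, with annotated starts 54420 bases apart, and close copies. Their longest open reading frames, 611 and 694 codons, had the same base at 1803 of 1833 aligned positions (98.4%), and 75.9% of the 50-base stretches of the Gbp10 transcript, and 64.1% of its 100-base stretches, also occur in that of Gbp6. Another gene, Gm43302, spans both on the same strand and shares 44.0% of the exon bases of Gbp10 and 25.4% of those of Gbp6. Its raw counts were 3, 3, 2, 2 and 4 in MLPKO and 3, 3, 10, 10 and 9 in cRADΔ/Δ-MLPKO. How reads that fit several of these genes were counted is not given in the sources used here, so the split of the counts between Gbp10 and Gbp6 is uncertain. Per 100 normalized counts of Gbp6, those of Gbp10 were 5.02, 5.71, 7.29, 4.19 and 7.24 in MLPKO and 11.0, 12.5, 23.2, 10.8 and 14.2 in cRADΔ/Δ-MLPKO. This ratio was chosen after the values were seen and was not tested. It did not overlap between the genotypes, so the 2 counts did not rise in 1 proportion.

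Marker levels of several cell types differed between the genotypes beside Gbp10 and Gbp6. The 14 macrophage markers summed to 225 to 323 CPM (counts per 1000000 counts) in MLPKO and 267 to 569 CPM in cRADΔ/Δ-MLPKO, with none called by edgeR. Their sum was highest in cRADΔ/Δ-MLPKO mouse 3, which also had the highest Gbp10 and Gbp6. The 10 endothelial markers summed to 932 to 1093 CPM in MLPKO and 1110 to 1244 CPM in cRADΔ/Δ-MLPKO, with Tek called (log2 fold change 0.32, edgeR adjusted p = 0.0196). The 6 pericyte and smooth muscle markers summed to 794 to 1006 CPM and 1022 to 1187 CPM, with Rgs5 (0.44) and Acta2 (1.24) called higher. Of 8 fibroblast markers, with sums of 2175 to 2917 CPM and 2221 to 3257 CPM, Dpt (0.93) was called higher. Only 4 of these 8 had a log2 fold change above 0, with a median of 0.029. It was above 0 in 12 of 14 macrophage, 9 of 10 endothelial and 5 of 6 pericyte and smooth muscle markers. Without adjustment, an edgeR p under 0.05 was reached, always on the higher side, by 12 of 14 macrophage, 7 of 10 endothelial, 3 of 6 pericyte and smooth muscle and 2 of 8 fibroblast markers, beside 21.6% of all genes in either direction. DESeq2 gave an adjusted p under 0.05 (10.1% of all genes) to the macrophage markers Adgre1, Csf1r, Itgam, Lyz2, C1qc, Ccr2 and Cd163. It did the same for Kdr, Tek, Tie1 and Erg (endothelial), Rgs5 and Acta2 (pericyte and smooth muscle) and Dpt (fibroblast). The other markers of these lists did not reach it.

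The 8 cardiomyocyte markers, which define the labelled tissue, summed to 71210 to 82700 CPM in MLPKO and 55459 to 67910 CPM in cRADΔ/Δ-MLPKO, with Tnnt2 called lower (−0.57) and 4 of the 8 lower at an unadjusted p under 0.05. The sums of the endothelial, pericyte and cardiomyocyte markers did not overlap between the genotypes, as was the case for Gbp10 and Gbp6. T cell markers summed to 2.35 CPM at most, NK cell markers to 1.25, neutrophil markers to 3.14, B cell markers to 6.86 and dendritic cell markers to 23.0 CPM in any mouse, and no gene of these lists was called by edgeR. Of these lists, 7 of 8 T cell, 6 of 6 NK cell, 3 of 5 neutrophil and 3 of 6 dendritic cell markers were under the filter on low counts, and all 4 B cell markers passed it. The part of any of these cell types in the higher counts of Gbp10 and Gbp6 was not tested.

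Of the other guanylate-binding protein genes of chromosome 5, Gbp4 and Gbp9 passed the filter on low counts and neither was called by edgeR. Gbp9 (chromosome 5, 105224332 to 105287452), the most abundant by mean count, had normalized counts of 958, 639, 961, 792 and 668 in MLPKO and 746, 888, 699, 766 and 713 in cRADΔ/Δ-MLPKO. The genotypes overlapped throughout, with a log2 fold change of −0.077 ± 0.12 (SE, edgeR adjusted p = 0.773). Gbp4 (chromosome 5, 105263633 to 105287609), named after its values were seen, had 989, 352, 633, 524 and 332 in MLPKO and 418, 587, 261, 347 and 359 in cRADΔ/Δ-MLPKO. MLPKO mouse 1 was the highest and cRADΔ/Δ-MLPKO mouse 3, the highest for Gbp6 and Gbp10, was the lowest, and the log2 fold change was −0.52 ± 0.30 (SE, edgeR adjusted p = 0.334). Gbp4 and Gbp9 share 107 exon bases of the annotation with each other and with Gbp8, and their open reading frames were 90.2% identical. Gbp8 had raw counts of 10, 6, 26, 5 and 6 in MLPKO and 4, 4, 8, 13 and 11 in cRADΔ/Δ-MLPKO, too few for the filter. Gbp11, which lies 27157 bases from the pair and is no member, had raw counts of 3, 2, 3, 0 and 3 in MLPKO and 2, 4, 7, 10 and 7 in cRADΔ/Δ-MLPKO. Its genotypes overlapped, with the higher counts in cRADΔ/Δ-MLPKO, and it was not tested.

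The 4 genes on chromosome 3 all overlapped between the genotypes. Gbp2 (chromosome 3, 142326349 to 142343779), the highest of them by mean count, had 989.9, 544, 814, 595 and 596 in MLPKO and 635, 804, 706, 643 and 579 in cRADΔ/Δ-MLPKO. MLPKO mouse 1 was the highest of the 10, and the log2 fold change was −0.075 ± 0.16 (SE, edgeR adjusted p = 0.833). It was −0.044 for Gbp3, −0.12 for Gbp5 and 0.059 for Gbp7, with edgeR adjusted p from 0.754 to 0.910. The plot of these genes by mouse shows the chromosome 3 genes at like levels in both genotypes.

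**Figure D2:**
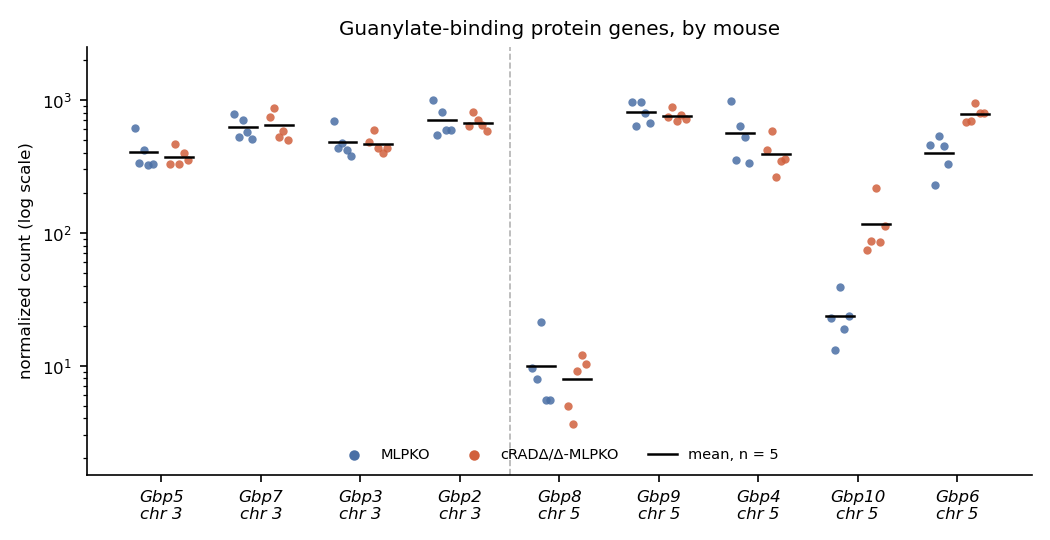
Normalized counts (y axis, log scale) of the 9 guanylate-binding protein genes (x axis) in each mouse, with bars at the mean of 5 mice. Gbp10 and Gbp6 do not overlap between MLPKO (blue) and cRADΔ/Δ-MLPKO (orange), and the other 7 genes do.

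Within 1 Mb of Gbp6 and Gbp10, 11 other genes were tested and none was called by edgeR. Of the 11, 2 had an unadjusted p under 0.05 (21.6% of all genes). These were Zfp951, a zinc finger gene, with a log2 fold change of 0.84 (edgeR adjusted p = 0.0799), and Lrrc8c, a subunit gene of volume-regulated anion channels, with 0.17 (edgeR adjusted p = 0.213). Zfp951, with 18 to 60 raw counts and 354583 bases from the pair, did not overlap between the genotypes, as was so for 6.62% of all genes. Beyond the group of guanylate-binding protein genes, Lrrc8b lay 119806 bases from the pair, with a log2 fold change of 0.16.

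**Figure D3:**
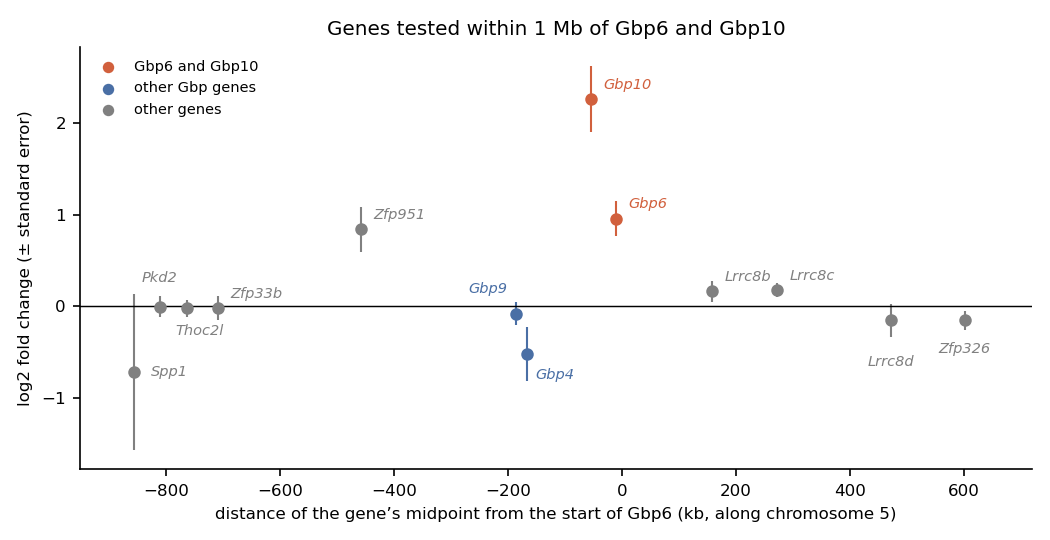
Log2 fold change of cRADΔ/Δ-MLPKO over MLPKO (y axis, bars ± 1 standard error, n = 5 mice per genotype) of the 13 genes tested in this region, against the distance of the gene's midpoint from the start of Gbp6 in kb (x axis). Gbp6 and Gbp10 stand above 0, and Gbp4 and Gbp9, the other guanylate-binding protein genes tested in the region, do not.

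The immunity-related GTPases, induced by interferon gamma with the guanylate-binding proteins, were not called, and 2 of 5 had a log2 fold change above 0. Iigp1 (chromosome 18, 60506680 to 60525706), a GTPase of parasite vacuoles, had normalized counts of 1876, 693, 1113, 1390.2 and 1092 in MLPKO and 1748, 955, 709, 1613 and 1221 in cRADΔ/Δ-MLPKO. The highest mouse was 2.71-fold above the lowest in MLPKO and 2.46-fold in cRADΔ/Δ-MLPKO, and the log2 fold change was 0.017 ± 0.27 (SE, edgeR adjusted p = 0.98). Irgm2 (chromosome 11, 58090444 to 58113615), a regulator of the other GTPases of the family, had 1089, 663, 896, 714 and 655 in MLPKO and 989.5, 817, 663, 827 and 779.7 in cRADΔ/Δ-MLPKO, with MLPKO mouse 1 the highest of all 10. Its log2 fold change was 0.019 ± 0.15 (SE, edgeR adjusted p = 0.958). Irgm1 (−0.018), Igtp (−0.043) and Tgtp2 (−0.42) had edgeR adjusted p from 0.485 to 0.953. Igtp and Irgm2 share 162 exon bases on the same strand, and Tgtp2 has a close copy, Tgtp1, so their counts are uncertain.

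Among the genes of RNA sensing and 2-5A synthesis, Oas1a and Oas2 came nearest to a call. Their products make 2′-5′-linked oligoadenylates on double-stranded RNA, which activate RNase L. Oas1a (chromosome 5, 121031070 to 121046449), given for its DESeq2 call, had normalized counts of 84.1, 90.4, 84.9, 71.7 and 82.1 in MLPKO and 162, 186, 119.7, 132 and 86.9 in cRADΔ/Δ-MLPKO. The MLPKO mice lay close together, and of the cRADΔ/Δ-MLPKO mice, mouse 5 alone fell within their range. The means were 82.6 ± 6.85 in MLPKO against 137 ± 38.4 in cRADΔ/Δ-MLPKO (SD, n = 5 mice each), a log2 fold change of 0.73 ± 0.20 (SE, edgeR adjusted p = 0.0642), and DESeq2 gave an adjusted p of 0.0116. Leaving out 1 mouse gave edgeR adjusted p up to 0.127, with no call. Oas2 (chromosome 5, 120868398 to 120887933), named after its values were seen, had 213, 234, 251, 222 and 115 in MLPKO and 408, 362, 343, 208 and 243 in cRADΔ/Δ-MLPKO. cRADΔ/Δ-MLPKO mice 1 to 3 were above all MLPKO mice and mice 4 and 5 within their range, and the log2 fold change was 0.59 ± 0.23 (SE, edgeR adjusted p = 0.157).

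The most abundant genes of this role were Oasl2 and Ifih1. Oasl2 (chromosome 5, 115034997 to 115050295), an OAS-like protein, had 468, 502, 407, 329 and 252 in MLPKO and 526, 456, 421, 333 and 352 in cRADΔ/Δ-MLPKO, and a log2 fold change of 0.094 ± 0.19 (SE, edgeR adjusted p = 0.818). Ifih1 (chromosome 2, 62425714 to 62476607), the RNA sensor MDA5, had 363, 424, 366, 309.8 and 255 in MLPKO and 470.0, 496, 392, 378 and 313 in cRADΔ/Δ-MLPKO, and a log2 fold change of 0.26 ± 0.15 (SE, edgeR adjusted p = 0.364). Both overlapped between the genotypes. Zbp1, a sensor of Z-form nucleic acids, was weak and spread 5.56-fold among MLPKO mice, with a log2 fold change of −0.25 ± 0.46 (SE, edgeR adjusted p = 0.806). Within 1 Mb of Oas1a and Oas2, none of 27 other genes was called by edgeR. Of the 27, 8 had an unadjusted p under 0.05, beside 21.6% of all genes. Tbx5, which is no OAS gene, had the lowest adjusted p of them, with a log2 fold change of 0.49 ± 0.13 (SE, edgeR adjusted p = 0.0609). Oas1g, a paralog of Oas1a with 2 to 55 raw counts, had a log2 fold change of 1.19 ± 0.47 (SE, edgeR adjusted p = 0.17). Reads can be shared between Oas1a and Oas1g.

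The transcription factors of the pathway were not called, and all 5 had log2 fold changes of 0.0018 (Irf8) or more. Irf1 (chromosome 11, 53660812 to 53669200), an early target of interferon signalling, had normalized counts of 712, 634, 636, 584 and 518 in MLPKO and 675, 733, 624, 647 and 783 in cRADΔ/Δ-MLPKO. The genotypes overlapped, with a log2 fold change of 0.17 ± 0.09 (SE, edgeR adjusted p = 0.33). Stat2 (chromosome 10, 128106352 to 128128735), which joins IRF9 in the complex that binds the ISRE, had 702, 500.4, 590.0, 504 and 399 in MLPKO and 704, 613, 536, 505 and 479 in cRADΔ/Δ-MLPKO, with a log2 fold change of 0.072 ± 0.15 (SE, edgeR adjusted p = 0.827). Irf7, which amplifies type I interferon production, had a log2 fold change of 0.44 ± 0.25 (SE, edgeR adjusted p = 0.346). cRADΔ/Δ-MLPKO mice 1 and 2 held 747 and 702 normalized counts of Irf7 and the other 3 between 359 and 368, within the MLPKO range of 271 to 495. Irf9 had a log2 fold change of 0.062. Irf9 shares 282 exon bases with Rnf31, a ubiquitin ligase gene on the same strand.

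The antiviral effectors and the IFIT genes showed the same absence of calls. Bst2 (chromosome 8, 71986895 to 71990114), or tetherin, which holds budding virions on the cell, had 792, 709, 767, 577 and 593 in MLPKO and 1004, 969, 845, 730.0 and 684 in cRADΔ/Δ-MLPKO. cRADΔ/Δ-MLPKO mice 1 to 3 were above every MLPKO mouse and the other 2 were not, and the log2 fold change was 0.30 ± 0.13 (SE, edgeR adjusted p = 0.202). Rsad2, or viperin, had 0.070, Mx2 0.46 and Mx1 −0.34 on the log2 scale, and Mx1 held at most 27.5 normalized counts in any mouse. Ifit2 (chromosome 19, 34527932 to 34554524), an RNA-binding protein with tetratricopeptide repeats, had 835, 789, 840.5, 614 and 593 in MLPKO and 670.4, 886, 792, 499 and 632 in cRADΔ/Δ-MLPKO. MLPKO mice 4 and 5 and cRADΔ/Δ-MLPKO mouse 4 were the lowest, and the log2 fold change was −0.078 ± 0.15 (SE, edgeR adjusted p = 0.819). Ifit1 had 0.24 and Ifit3 0.066.

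Isg15 (chromosome 4, 156283883 to 156285303), a ubiquitin-like protein that is joined to other proteins, had normalized counts of 179, 144, 100.4, 61.7 and 104 in MLPKO and 161, 209, 147, 97.6 and 78.5 in cRADΔ/Δ-MLPKO. The values ranged 2.89-fold within MLPKO and 2.66-fold within cRADΔ/Δ-MLPKO, and the log2 fold change was 0.23 ± 0.31 (SE, edgeR adjusted p = 0.716). Usp18, the protease that removes ISG15 and damps IFNAR signalling, had 0.22 ± 0.26 (SE, edgeR adjusted p = 0.676). Ifi27 (chromosome 12, 103392254 to 103407799), a mitochondrial and nuclear envelope protein, had 580.0, 633, 554, 601 and 464 in MLPKO and 717, 599, 775, 531 and 549 in cRADΔ/Δ-MLPKO, with cRADΔ/Δ-MLPKO mouse 3 the highest and a log2 fold change of 0.16 ± 0.12 (SE, edgeR adjusted p = 0.469). The log2 fold changes of Ifi35, Ifi44, Xaf1 and Trim30a were 0.092, 0.058, 0.16 and 0.31. Trim30a, a TRIM family gene, had an unadjusted p under 0.05 and an edgeR adjusted p of 0.188. Antisense genes overlap several members. Gm46878 covers 31.1% of the exon bases of Isg15. Of 3 antisense genes over Irf1, Gm17334 covers 31.4%, Gm12216 13.2% and Gm74496 8.66%. Ifi27l2a, with up to 723 raw counts in a mouse, covers 3.65% of Ifi27. Vat1, with up to 1499 raw counts in a mouse, covers 16.2% of Ifi35, and the strand setting of the counting is not given in the sources used here.

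The levels per kb of exon, in CPM, set the members in order within MLPKO. Bst2 was the highest at 13.7 ± 1.97 CPM per kb (SD, n = 5), followed by Gbp2 (6.69 ± 1.79), Irgm2 (5.19 ± 1.21), Iigp1 (4.69 ± 1.66) and Isg15 (3.64 ± 1.39). Bst2 stood above Gbp2 beyond their spread, and from Irgm2 to Isg15 each mean lay within the spread of the gene before it. At the lower end were Mx2 (0.247 ± 0.0872), Zbp1 (0.244 ± 0.152), Mx1 (0.123 ± 0.0505), Gbp10 (0.0970 ± 0.0400) and Gbp8 (0.0533 ± 0.0351). In cRADΔ/Δ-MLPKO, Gbp10 had 0.476 ± 0.243 CPM per kb, and Gbp6 had 1.42 ± 0.431 in MLPKO and 2.77 ± 0.379 in cRADΔ/Δ-MLPKO.

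Mice of 1 genotype differed from each other across many members at once. The 38 members summed to 476, 332, 399.9, 329 and 295 CPM in MLPKO and 447, 439, 373, 359 and 346 CPM in cRADΔ/Δ-MLPKO, which overlap. The median deviation of the 37 members from their means over 10 mice, on the log2 scale, was 0.25, −0.099, 0.091, −0.23 and −0.33 in MLPKO mice 1 to 5 and 0.31, 0.33, 0.056, −0.12 and −0.14 in cRADΔ/Δ-MLPKO mice 1 to 5. Of the 37 members, 30 were above their own mean in MLPKO mouse 1 and 1 in MLPKO mouse 5, and 34 were above it in cRADΔ/Δ-MLPKO mouse 2 and 6 in cRADΔ/Δ-MLPKO mouse 5. The spread of these medians within each genotype was wider than the median difference between the genotypes. Gbp10 and Gbp6, picked out for their difference between the genotypes, were below their own means in every MLPKO mouse and highest in cRADΔ/Δ-MLPKO mouse 3. The macrophage markers summed to 277, 233, 242, 323 and 225 CPM in MLPKO and 356, 267, 569, 350.0 and 401 CPM in cRADΔ/Δ-MLPKO. In MLPKO mouse 4, which had the highest marker sum of its genotype, 5 of the 37 members were above their own mean. In MLPKO mouse 5, with the lowest marker sum of its genotype, 1 was. How the members and these markers go together over the mice was not tested. The median deviations of the 11 other guanylate-binding proteins and immunity-related GTPases tested were 0.57, −0.28, 0.17, −0.12 and −0.28 in MLPKO and 0.13, 0.24, −0.21, −0.079 and −0.12 in cRADΔ/Δ-MLPKO.

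**Figure D4:**
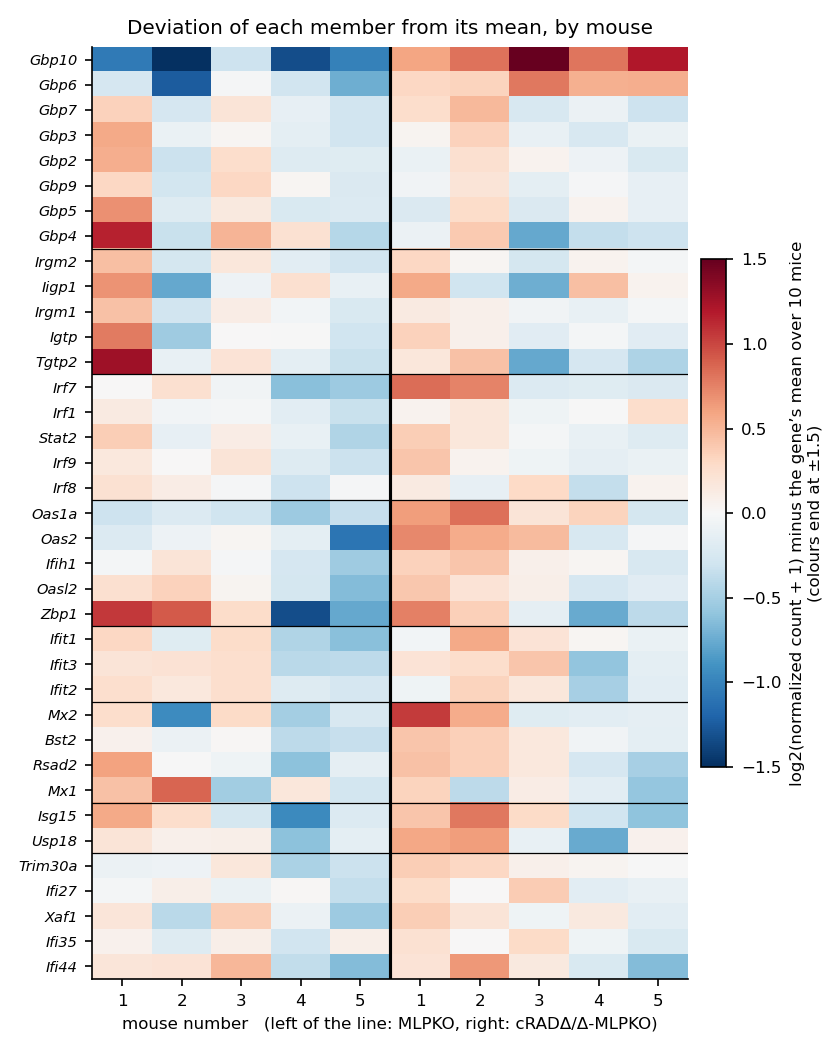
Deviation of each of 37 members (rows, by role) from its mean over 10 mice, as log2(normalized count + 1), in each mouse (columns, MLPKO at left and cRADΔ/Δ-MLPKO at right of the line), with colours that end at ± 1.5. Whole columns are mostly red (MLPKO mouse 1, cRADΔ/Δ-MLPKO mice 1 and 2) or mostly blue (MLPKO mouse 5), while Gbp10 and Gbp6 in the top rows are blue or near white left of the line and red right of it.

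Upstream of these genes, 22 genes of interferon receptors and signalling were tested and 1 was called. It was Irf2bp2 (chromosome 8, 127313038 to 127320753), a corepressor that binds IRF2, with normalized counts of 1383, 1329.6, 1399, 1625 and 1511 in MLPKO and 1760.1, 1836, 1593, 1821 and 1836 in cRADΔ/Δ-MLPKO. The genotypes overlapped only at cRADΔ/Δ-MLPKO mouse 3 and MLPKO mouse 4, and the log2 fold change was 0.29 ± 0.07 (SE, edgeR adjusted p = 0.0475). The call was kept in 1 of 10 fits that left out a mouse. The median log2 fold change of the list was 0.045. None of the 16 nucleic acid sensors and adaptors was called by edgeR. Of them, 2 (12.5%), both lower, had an unadjusted p under 0.05, beside 21.6% of all genes. For Traf3, 1 of these 2, the log2 fold change was −0.41 and DESeq2 gave an adjusted p of 0.0212. Of 13 ligand genes, Il15 and Il18 passed the filter and neither was called. Ifnb1, Ifng and 7 other interferon genes had 3 raw counts or fewer in every mouse.

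Of 62 further interferon-induced genes, 57 were tested and 1 was called. Ifi207 (chromosome 1, 173550990 to 173569383), of the PYHIN family of DNA sensors, had normalized counts of 202, 199, 239.9, 234 and 163 in MLPKO and 364, 353, 346, 327 and 319 in cRADΔ/Δ-MLPKO. Every cRADΔ/Δ-MLPKO mouse lay above every MLPKO mouse, and the means were 208 ± 30.8 in MLPKO against 342 ± 18.5 in cRADΔ/Δ-MLPKO (SD, n = 5 mice each), a log2 fold change of 0.72 ± 0.11 (SE, edgeR adjusted p = 0.0158). The call held in 10 of 10 fits without 1 mouse each. Without adjustment, 15 of the 57 were higher and 3 lower at a p under 0.05 (31.6%, beside 21.6% of all genes), with a median log2 fold change of 0.18. The genotypes were also fully separate in Ifi204, Ifitm1, Lgals9 and Slfn8, all higher, and in Ifit1bl1, lower (6.62% of all genes). DESeq2 gave an adjusted p under 0.05 (10.1% of all genes) to Ifi207, Ifi204, Ifitm1, Ifitm2, Lgals9, Slfn5 and Slfn8, all higher. It did the same for Parp9 and Dtx3l, both lower. Gbp11 and Gbp2b, the remaining guanylate-binding protein genes listed, had at most 10 and 4 raw counts.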

How the data were processed

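Ventricular RNA (RIN above 9) was enriched for polyadenylated transcripts, with 1 library per mouse. The authors aligned reads to GRCm39 with STAR and deposited raw counts per gene from featureCounts, not normalized. Strand, read-pair and multi-mapping settings are not given in the sources used here. Of 60676 genes, 3491 without any value were left out. GENCODE M39 named 56629 of the other 57185, and the members were found by symbol. The members and lists were chosen with earlier results of these data known.

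The filter kept genes above 10 counts in 6 or more of the 10 mice and dropped Gm and Rik names (13451 genes). Genotypes were compared (n = 5 mice each) in R 4.3.3 with edgeR 4.0.16, using TMM, quasi-likelihood tests and p-values adjusted by Benjamini-Hochberg over all 13451 genes. DESeq2 1.42.0 and limma 3.58.1 were alternatives, with others in the closing section. The scripts were tested on simulated data. Total counts of 33457406 to 49965101 per mouse set the precision of weak genes, and counts of 3 or fewer were taken as the floor. Transcripts and promoters were aligned with Biopython 1.88 in Python 3.11.15. Values in every mouse are given for called members, members without overlap and the 1 or 2 members of each role with the highest mean count. Of the lists, called genes are named, and others are marked or were named after their values were seen.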

Additional observations from a re-analysis of the deposited data

Results flagged for a closer look

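In 76 groups of 5 mice (38 members in 2 genotypes), the gap of the highest or lowest mouse to the next was compared with the range of the group, and 4 groups passed Dixon's limit, where chance gives about 1 in 20. Gbp10 had 218 normalized counts in cRADΔ/Δ-MLPKO mouse 3, and the next mouse had 113. Tgtp2 had 573 in MLPKO mouse 1, with 273 in the next. Oas2 had 115 in MLPKO mouse 5, where the next lowest had 213. Gbp8, which was not tested, had 21.2 in MLPKO mouse 3, with 9.56 in the next.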

How the results depend on the processing

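Gbp10 and Gbp6 were called, and no member was called lower, under RLE or upper quartile scaling, without a low-count filter, with filterByExpr, with predicted genes retained, and by limma-voom and robust dispersion. DESeq2 added Oas1a (3 members) and called 1298 genes in all, against 369. Leaving out 1 mouse gave between 1 member (Gbp10, without MLPKO mouse 1 or 5 or any of cRADΔ/Δ-MLPKO mice 2 to 5) and 2 members called higher, a median log2 fold change of the members from −0.0049 to 0.17, and between 50 (without cRADΔ/Δ-MLPKO mouse 5) and 826 (without MLPKO mouse 4) genes called in all. The cause was not tested.

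The mouse numbers belong to different animals. Deviations of same-numbered mice from their genotype means correlated at 0.025, 0.067, 0.097, 0.15 and −0.042 for numbers 1 to 5, and 4 of 10 mice correlated best with their own number. With the number as a replicate block, the same 2 members and 281 genes were called, Irf2bp2 (adjusted p = 0.0631) and Acta2 (0.0569) were not, and values near 0 turned to 0.0032 for Irgm1, 0.014 for Igtp and −0.0015 for Irf8. Among other settings, log2 fold changes near 0 turned for Irgm1 (0.0035, upper quartile scaling), Iigp1 (−0.00091, limma-voom) and Irf8 (−0.0021 with RLE, −0.0034 with DESeq2, −0.022 with limma-voom), none of them called.

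Leaving out 1 mouse took the log2 fold change across 0 in 18 uncalled members: −0.15 to 0.076 for Gbp2, −0.14 to 0.12 for Gbp3, −0.21 to 0.079 for Gbp5, −0.070 to 0.16 for Gbp7, −0.15 to 0.0016 for Gbp9, −0.084 to 0.11 for Irgm1, −0.059 to 0.15 for Irgm2, −0.16 to 0.21 for Igtp, −0.13 to 0.22 for Iigp1, −0.18 to 0.027 for Ifit2, −0.027 to 0.20 for Ifit3, −0.12 to 0.21 for Ifi44, −0.052 to 0.27 for Rsad2, −0.030 to 0.20 for Oasl2, −0.020 to 0.19 for Stat2, −0.071 to 0.089 for Irf8, −0.045 to 0.13 for Irf9 and −0.48 to 0.039 for Zbp1. Weak genes, such as Gbp8, Mx1 and Gbp10 in MLPKO, rest on few counts, and the split of reads between Gbp10, Gbp6 and Gm43302 could not be checked from counts per gene.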
